A study of Mus musculus with 4 samples.

Results

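The genes described here are 40 markers of blood, nerve and Schwann cells, chosen by name, and every open chromatin region within 20 kb of their gene bodies in newborn mouse hearts. They are 19 immune, 10 erythroid and 11 neuronal and Schwann cell genes of 21631 protein-coding genes, and they hold 124 of the 53140 regions of the series. All 40 were found in the RefSeq gene table of build GRCm38.p6. The outermost regions counted lay 19478 bp from Erbb3 and 18728 bp from Th, each called in all 4 libraries. The nearest regions left out lay 20182 bp from Spi1, called in edKO 1 and both WT libraries, and 20524 bp from Cx3cr1, called in all 4.

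Accessible DNA was mapped in nuclei of whole C57BL/6 hearts at postnatal day 0 by ATAC-seq, an assay that cuts and tags open chromatin with the enzyme Tn5. The edKO group (n = 2 hearts) carried a deletion of the nuclear receptors RXR alpha and RXR beta that the labels describe as restricted to cardiomyocytes, and the WT group (n = 2 hearts) was wild type. Each library came from 1 heart. The labels give neither the driver of the deletion nor the sex of the hearts. The blood, nerve and glial cells of edKO hearts are not among the cells the labels name as targeted.

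A whole heart holds cardiomyocytes, endothelial cells, fibroblasts, resident macrophages and circulating blood cells. It also holds the nerve fibres and Schwann cells that grow in with the autonomic nervous system. Blood lineages are set by factors such as PU.1 (Spi1), GATA1, KLF1, TAL1 and RUNX1, and Schwann cells by SOX10 and by neuregulin signals through ERBB3. Cell bodies of sympathetic neurons lie outside the heart, so a cardiac preparation holds their axons but few of their nuclei. The small cardiac ganglia hold cell bodies of other neurons. A bulk library sums all nuclei, so a site open in a rare cell type gives few fragments, and fewer cells of a type cannot be told apart from less accessibility per cell.

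A region is the union of the authors' peaks that overlap between libraries, and it is called in a library when that library has a peak in it. A region with a call in WT 1 and WT 2 but none in edKO 1 or edKO 2 is termed WT-only, and the reverse edKO-only. The libraries held 27473 (edKO 1), 27142 (edKO 2), 35279 (WT 1) and 38809 (WT 2) peaks, so the WT lists were longer. The median number of fragments stacked at a summit was 19, 18, 23 and 23 in the same libraries, as recovered from the deposited values. The lowest local background, a stand-in for depth, was 1.51 in edKO 1, 1.92 in edKO 2, 1.81 in WT 1 and 1.80 in WT 2. The median fold enrichment of an equal number of top peaks per list was lowest in edKO 2. It was 10.2 in edKO 1, 7.61 in edKO 2, 10.8 in WT 1 and 11.5 in WT 2. As a check of the tissue, 14 of 15 cardiomyocyte genes had a call at their start in all 4 libraries, beside 48.7% of all protein-coding genes. The 4 of 10 endothelial and 4 of 10 fibroblast and mural genes with such calls did not exceed that share. The deleted exons were not located, so the 5, 5, 6 and 7 regions called over Rxra and the 1, 1, 2 and 2 over Rxrb in edKO 1, edKO 2, WT 1 and WT 2 do not check the genotype.

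The starts of these 40 genes were mostly not called in these hearts. Of the 40 genes, 7 (17.5%) had a region called in all 4 libraries within 1 kb of a start, against 48.7% of all protein-coding genes. For 29 genes (72.5%) no library had a call there, against 39.3% of all genes. Where the promoter table gives no start (10 of the 40 genes), either end of the gene was used. An uncalled site is one under the authors' threshold and need not be closed.

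The 7 genes differ in how far they are marks of blood or nerve. Tfrc, the transferrin receptor that brings iron into dividing and haem-making cells of many kinds, Runx1, a factor of blood stem cells, and the erythroid regulator Klf1 were among them. So were Sptb and Ank1, which encode the spectrin and ankyrin of the red cell membrane skeleton and are also expressed in muscle. Elavl4, which encodes a neuronal RNA-binding protein, and Erbb3, the neuregulin receptor of Schwann cells, completed the set. For Ank1 and Erbb3 no start was given, so the region lay at an end that need not be the start. The Erbb3 region reached within 918 bp of that gene and within 1 kb of an end of its neighbour Pa2g4, a broadly expressed gene.

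Promoter sequence is shown for genes that differ in these calls, because they also differed in their number of CG dinucleotides. Each window runs from 250 bases before to 50 bases after a RefSeq start in GRCm38.p6, 5′ to 3′ on the gene's strand, and capitals mark CG dinucleotides. Tfrc, Runx1 and Elavl4 were called in all 4 libraries, Epor in edKO 2 and WT 2, Foxd3 in edKO 1 alone, and Tubb3 and Ptprc in no library. The windows lie at chr16:32608646-32608945 (Tfrc, plus strand), chr16:92697280-92697579 (Runx1, minus strand), chr4:110351862-110352161 (Elavl4, minus strand), chr9:21963527-21963826 (Epor, minus strand), chr4:99656049-99656348 (Foxd3, plus strand), chr8:123411303-123411602 (Tubb3, plus strand) and chr1:138175077-138175376 (Ptprc, minus strand).
Tfrc: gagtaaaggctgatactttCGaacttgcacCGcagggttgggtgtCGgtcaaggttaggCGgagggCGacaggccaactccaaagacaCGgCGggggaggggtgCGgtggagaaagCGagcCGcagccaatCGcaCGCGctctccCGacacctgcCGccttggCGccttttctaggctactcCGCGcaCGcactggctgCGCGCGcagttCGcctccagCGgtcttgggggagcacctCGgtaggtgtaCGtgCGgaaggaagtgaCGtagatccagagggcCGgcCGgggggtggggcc
Runx1: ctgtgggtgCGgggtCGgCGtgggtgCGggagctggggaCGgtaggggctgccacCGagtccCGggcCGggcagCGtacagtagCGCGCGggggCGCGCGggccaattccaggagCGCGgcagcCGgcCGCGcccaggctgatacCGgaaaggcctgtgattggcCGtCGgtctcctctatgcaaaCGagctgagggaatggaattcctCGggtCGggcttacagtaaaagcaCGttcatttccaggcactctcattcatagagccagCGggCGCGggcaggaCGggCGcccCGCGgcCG
Elavl4: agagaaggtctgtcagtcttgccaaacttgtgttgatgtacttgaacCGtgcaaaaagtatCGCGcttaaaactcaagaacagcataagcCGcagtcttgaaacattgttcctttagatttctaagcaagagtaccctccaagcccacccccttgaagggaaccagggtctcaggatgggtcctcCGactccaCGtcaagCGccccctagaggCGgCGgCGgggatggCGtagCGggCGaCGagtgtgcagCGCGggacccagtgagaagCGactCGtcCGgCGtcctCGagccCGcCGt
Epor: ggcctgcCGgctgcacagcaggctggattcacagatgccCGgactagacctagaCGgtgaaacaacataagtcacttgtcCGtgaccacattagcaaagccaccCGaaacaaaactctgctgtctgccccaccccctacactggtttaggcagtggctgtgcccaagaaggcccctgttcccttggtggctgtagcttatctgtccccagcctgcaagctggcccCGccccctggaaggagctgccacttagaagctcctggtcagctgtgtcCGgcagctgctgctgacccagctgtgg
Foxd3: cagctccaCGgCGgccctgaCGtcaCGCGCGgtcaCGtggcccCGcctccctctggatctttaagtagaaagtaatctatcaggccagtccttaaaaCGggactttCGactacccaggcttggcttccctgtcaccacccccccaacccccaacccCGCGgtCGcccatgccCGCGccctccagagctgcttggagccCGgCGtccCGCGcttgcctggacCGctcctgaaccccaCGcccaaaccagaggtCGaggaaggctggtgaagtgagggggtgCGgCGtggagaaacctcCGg
Tubb3: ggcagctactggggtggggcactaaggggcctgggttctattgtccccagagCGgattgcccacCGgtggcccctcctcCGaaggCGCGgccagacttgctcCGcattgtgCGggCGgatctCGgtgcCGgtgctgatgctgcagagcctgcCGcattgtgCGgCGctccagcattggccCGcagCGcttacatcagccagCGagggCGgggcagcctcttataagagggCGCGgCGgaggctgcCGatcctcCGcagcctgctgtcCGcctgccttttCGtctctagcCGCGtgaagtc
Ptprc: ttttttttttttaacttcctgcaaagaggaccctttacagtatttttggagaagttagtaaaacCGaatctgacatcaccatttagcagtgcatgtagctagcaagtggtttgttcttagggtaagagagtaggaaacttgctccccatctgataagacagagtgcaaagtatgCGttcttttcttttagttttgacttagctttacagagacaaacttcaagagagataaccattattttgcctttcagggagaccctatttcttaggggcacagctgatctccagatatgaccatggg

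The Runx1, Tfrc and Elavl4 windows held 35, 30 and 23 CG dinucleotides, and the Epor and Ptprc windows 7 and 2. Over all 32619 promoter windows of the table the median was 23 where the start was called in all 4 libraries, 10 where it was called in 1 to 3, and 3 where it was called in none. The 30 members with an entry have 38 windows, with medians of 26.5 (6 windows), 16.5 (4 windows) and 6 (28 windows) in those classes. Windows rich in CG were also found among starts with no call, with 26 in Tubb3, which encodes the neuronal tubulin beta chain, and 23 in Ngfr, the p75 neurotrophin receptor. At Klf1 the window held 3, and the region called in all 4 libraries lay 997 bp from the start rather than over it.

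**Figure D1:**
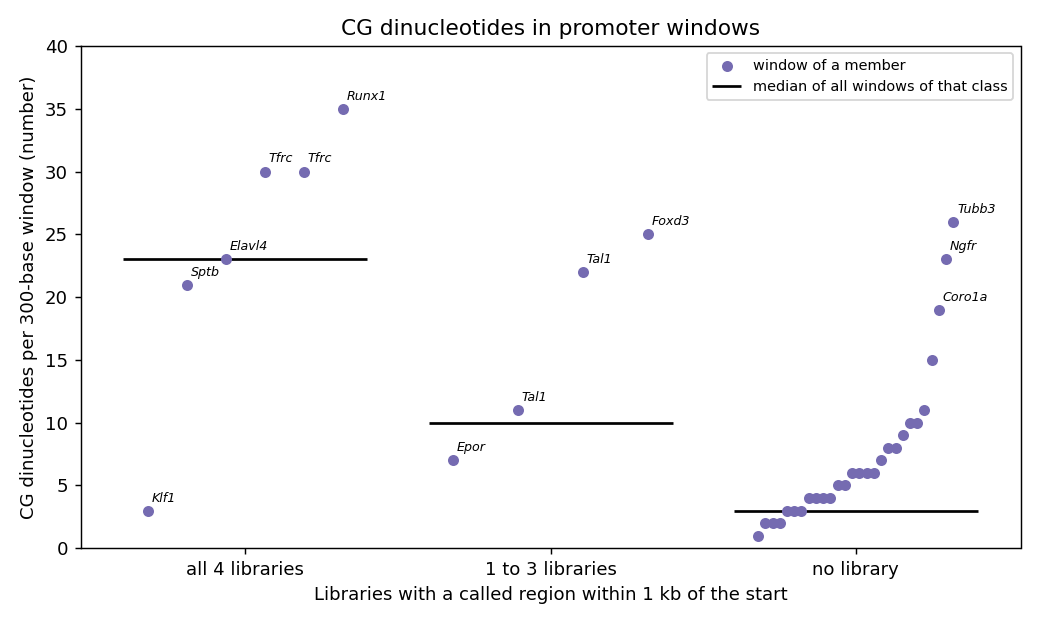
Number of CG dinucleotides in each 300-base promoter window of the member genes (points), by how many of the 4 libraries had a called region within 1 kb of that start; lines give the median of all windows of the table in each class. Windows of starts called in all 4 libraries reach 35 (Runx1), and the 28 windows of starts with no call have a median of 6, with Tubb3 at 26.

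Short motifs linked to blood factors were searched on both strands of these windows. The letters GAGGAA, a core of PU.1 sites, were in 10 of the 17 windows of immune genes (58.8%) and in 28.2% of all windows. They were also in 4 of the 10 erythroid, 0 of the 8 neuronal and 1 of the 3 Schwann and neural crest windows. The letters AGATAA, recognised by GATA1 and its relatives, were in 4 of the 10 erythroid windows and in 11.2% of all windows. The 4 were windows of Epor, Alas2, Tal1 and Epb42. AGATAA was also in 1 of the 17 immune, 2 of the 8 neuronal and 0 of the 3 Schwann and neural crest windows. CACCC, recognised by KLF factors, was in 8 of the 10 erythroid windows and in 57.7% of all windows. It was in 10 of the 17 immune, 6 of the 8 neuronal and 3 of the 3 Schwann and neural crest windows. ACAAAG, recognised by SOX factors, was in 0 of the 3 Schwann and neural crest windows and in 18.7% of all windows. AGGTCA, the half-site of nuclear receptors, was in 4 of the 38 member windows and in 16.2% of all windows. The same 2 Elavl4 windows are among these 4 and share 1 AGGTCA. These are letter matches in few windows and describe no binding.

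Among the 40 members, the immune genes had the smallest share of starts called, with 5.26% called in all 4 libraries. Of the 19, Runx1 was called at its start in all 4 libraries and Spi1 within 1 kb of an end in the WT hearts, and 17 had no such call in any library. The uncalled genes included Ptprc (CD45, the phosphatase of all leukocytes), Csf1r (the CSF1 receptor of macrophages), Itgam (CD11b), Mrc1 (the mannose receptor of resident macrophages), Cx3cr1 (the fractalkine receptor), C1qa and C1qb (chains of complement C1q), Tyrobp (an adaptor of myeloid receptors), Laptm5 (a lysosomal protein of leukocytes) and Coro1a (a leukocyte actin regulator). No region at all lay within 20 kb of Adgre1 (F4/80), Lyz2 (lysozyme) or Cd3e (a T cell receptor subunit). In a second list of 20 immune genes, 3 starts (Lyn, Lcp1 and Cebpa) were called in all 4 libraries and 11 in none. That share of 15% was not the smallest among second lists, with 13.3% for neuronal and 13.3% for Schwann and neural crest genes. In a list of 20 genes of other organs, 1 start (Sftpc) was called in all 4 and 17 in none.

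At the Runx1 start (chromosome 16, 92697193 to 92697640) the authors' −log10 p was 16.8 (edKO 1) and 14.8 (edKO 2), against 31.8 (WT 1) and 34.0 (WT 2). Fragments at the summit numbered 24 and 24 in edKO 1 and edKO 2 and 44 and 45 in WT 1 and WT 2. Both edKO values lay below both WT values, but these values scale with depth and enrichment and do not measure a difference between libraries at 1 site. The gene's other start in the table, 63562 bp from the nearest region, had no call in any library.

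The Spi1 region (chromosome 2, 91115018 to 91115374), 385 bp from an end of the gene that encodes PU.1, was WT-only. Neither edKO library had a peak there, while WT 1 had a −log10 p of 15.3 and WT 2 one of 10.6. The fold enrichment there was 3.36 and 2.71 on summits of 58 and 54 fragments in WT 1 and WT 2, so the local background was high. Regions at the end of its neighbour Mybpc3, which encodes the cardiac myosin-binding protein C, followed at 91117717 to 91118301 and 91118590 to 91119097 and were called in all 4 libraries.

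The strongest immune regions lay at other genes. The highest by rank within the lists (chromosome 11, 69672132 to 69672775) was 5962 bp from Cd68, a lysosomal protein of macrophages, at the ends of Eif4a1 and Senp3, with a −log10 p of 114 (edKO 1), 77.3 (edKO 2), 160.5 (WT 1) and 182 (WT 2). Next came a region at Rps19 near Cd79a, the signalling chain of the B cell receptor, with 88.1 (edKO 1), 57.5 (edKO 2), 119 (WT 1) and 111 (WT 2). That at Slc39a13 near Spi1 had 88.5 (edKO 1), 76.2 (edKO 2), 77.8 (WT 1) and 121 (WT 2), so the groups overlapped there. That at Apoa2 and Tomm40l near Fcer1g, an Fc receptor subunit, had 68.8 (edKO 1), 46.02 (edKO 2), 106 (WT 1) and 123 (WT 2). All 7 Cd68 regions lay at an end of another gene. The fifth (chromosome 7, 24904043 to 24904564) was 2185 bp from the body of Cd79a and 6546 bp from its start. It lay at no gene end and had a −log10 p of 71.1 (edKO 1), 44.2 (edKO 2), 73.5 (WT 1) and 123 (WT 2).

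**Figure D2:**
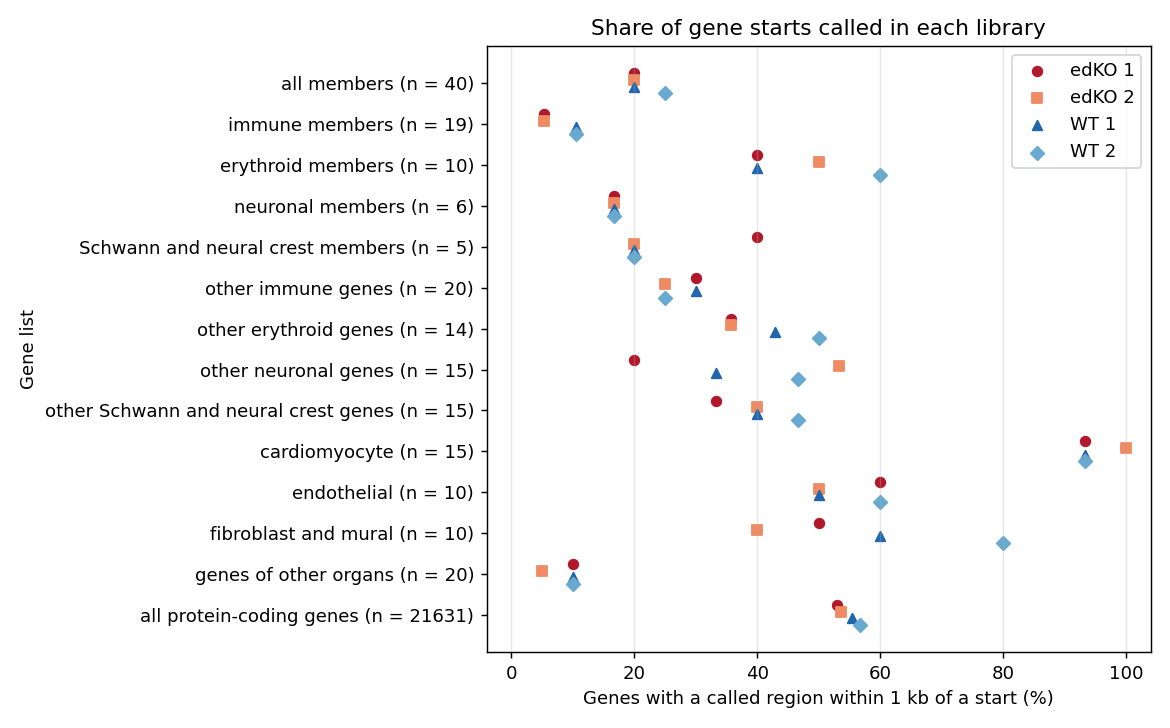
Share of genes in each list (rows, with the number of genes matched) that had a called region within 1 kb of a start, in edKO 1, edKO 2, WT 1 and WT 2 (points, in %). Immune members lie between 5.26% and 10.5%, the other immune genes between 25% and 30%, cardiomyocyte genes at 93.3% or more and all protein-coding genes between 52.9% and 56.8%.

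Erythroid genes had a larger share of called starts, 4 of 10 in all 4 libraries, with Ank1 counted by an end that need not be its start. At Tfrc (chromosome 16, 32608606 to 32609315) the −log10 p was 67.4 (edKO 1) and 60.7 (edKO 2), against 120.0 (WT 1) and 153 (WT 2). At Sptb (chromosome 12, 76709303 to 76710981) it was 34.2 and 19.8 in edKO 1 and edKO 2 and 45.04 and 40.9 in WT 1 and WT 2. At Klf1 (chromosome 8, 84902979 to 84903620) it was 11.7 and 10.02 in edKO 1 and edKO 2 and 28.5 and 20.1 in WT 1 and WT 2. In these 3 regions both edKO values lay below both WT values. As at Runx1, the values scale with depth and enrichment, and how many of all regions show this order was not counted. Summits over all peaks were also lower in edKO 1 and edKO 2 (medians of 19 and 18 fragments) than in WT 1 and WT 2 (23 and 23). At Ank1 (chromosome 8, 23149560 to 23150270), 231 bp from an end of the gene, it was 9.11 and 10.3 in edKO 1 and edKO 2 and 12.6 and 17.7 in WT 1 and WT 2. A stronger Ank1 region lay inside the gene (23131869 to 23132467), at 25.4 and 27.7 in edKO 1 and edKO 2 and 45.3 and 64.6 in WT 1 and WT 2.

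The other 6 erythroid genes were called at a start in 1 or 2 libraries or in none. The start of Epor, the erythropoietin receptor (chromosome 9, 21963536 to 21963820), had −log10 p of 8.11 in edKO 2 and 6.10 in WT 2 and no peak in edKO 1 or WT 1. That of Tal1, a factor of blood and endothelial precursors (chromosome 4, 115057259 to 115057559), had 9.38 in WT 2 and no peak in the other libraries. Alas2 (the first enzyme of haem synthesis in red cells), Gata1, Slc4a1 (the band 3 anion exchanger) and Epb42 (protein 4.2) had no call at a start in any library. The only region within 20 kb of Gata1 lay at an end of Hdac6 (−log10 p of 39.8, 30.5, 60.1 and 66.8 in edKO 1, edKO 2, WT 1 and WT 2), and the only region near Epb42 at Ccndbp1 and Tmem62. The strongest Epor region lay at an end of Swsap1 (59.5, 26.2, 83.8 and 66.3 in the same order). In a second list of 15 erythroid genes, of which 14 were matched, 4 starts (Nfe2, Epb41, Zfpm1 and Car2) were called in all 4 libraries and 6 in none.

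Among neuronal genes only Elavl4 was called at a start in any library. Its region (chromosome 4, 110351432 to 110352016) had −log10 p of 9.03 in edKO 1 and 12.5 in edKO 2, against 18.4 in WT 1 and 9.97 in WT 2, so the groups overlapped. Th and Dbh, the enzymes that make noradrenaline in sympathetic neurons, Tubb3, Prph (peripherin) and Stmn2 (stathmin 2) had no call at a start. Inside Th a region was WT-only (chromosome 7, 142894704 to 142894993), with a −log10 p of 10.6 (WT 1) and 9.39 (WT 2). Dbh had 4 regions, of which 2, 0, 2 and 4 were called in edKO 1, edKO 2, WT 1 and WT 2. In a second list of 15 neuronal genes, 2 starts (Snap25 and Uchl1) were called in all 4 libraries and 5 in none.

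The 5 Schwann cell and neural crest genes gave more calls in edKO 2 than in any other library, but a second list of such genes did not. Of their 20 regions 10 were called in edKO 1, 16 in edKO 2, 10 in WT 1 and 11 in WT 2, and 7 were called in edKO 2 alone against 1 alone in each of the other libraries. Over all 53140 regions the calls made in a single library numbered 2424 in edKO 1, 6093 in edKO 2, 4921 in WT 1 and 7466 in WT 2. Erbb3 carried 4 of these 7 edKO 2 calls, at −log10 p between 4.47 and 9.21, and 1 of them, at 6.83, lay 741 bp from an end of the gene. All 8 Erbb3 regions were called in edKO 2, and 4 in each other library. By number of calls edKO 1 lay with the WT hearts. In the second list, of 15 genes with 48 regions, the order differed, with 21 called in edKO 1, 18 in edKO 2, 25 in WT 1 and 32 in WT 2.

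The strongest neuronal and Schwann regions lay mostly at neighbouring genes. The Erbb3 region at Pa2g4 (chromosome 10, 128565797 to 128566605) had a −log10 p of 92.2 (edKO 1), 64.3 (edKO 2), 121 (WT 1) and 147 (WT 2). A region at Troap, 19139 bp from the start of Prph, had 72.5 (edKO 1), 41.1 (edKO 2), 90.2 (WT 1) and 103 (WT 2). Both others on the Erbb3 flank lay at Rpl41 and Zc3h10, with 50.8 and 29.5 in edKO 1, 20.5 and 12.02 in edKO 2, 83.2 and 49.5 in WT 1 and 80.5 and 50.3 in WT 2. The fifth lay inside Erbb3 away from gene ends (128583604 to 128584022), with 17.8 (edKO 1), 18.7 (edKO 2), 29.9 (WT 1) and 49.5 (WT 2). In each of these 5 regions both edKO values lay below both WT values. These values scale with depth and enrichment, and how many of all regions show this order was not counted. The median summit over all peaks was also lower in edKO 1 and edKO 2 (19 and 18 fragments) than in WT 1 and WT 2 (23 and 23). By percentile rank within each list the groups overlapped at the fifth region, with 76.9 in edKO 2 and 76.6 in WT 1.

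Foxd3, a factor of neural crest cells, had 3 regions and more calls in edKO than in WT libraries. Its start (chromosome 4, 99656260 to 99656701) had −log10 p of 7.69 in edKO 1 and no peak in edKO 2, WT 1 or WT 2. A region in the gene (99657768 to 99657967) had 5.44 in edKO 2 alone, and one upstream (99650338 to 99651171) 7.42 in edKO 1, 4.85 in edKO 2 and 5.29 in WT 2. The summits held 10 to 13 fragments, so these calls lay near the detection limit. Sox10, the lineage factor of glia, had 2 regions beyond its gene body, both called in all 4 libraries. The stronger of them (chromosome 15, 79140954 to 79141559) lay at ends of Polr2f and 1700088E04Rik. S100b, a calcium-binding protein of glia, had 1 region called in all 4 libraries inside the gene (chromosome 10, 76257960 to 76258420).

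**Figure D3:**
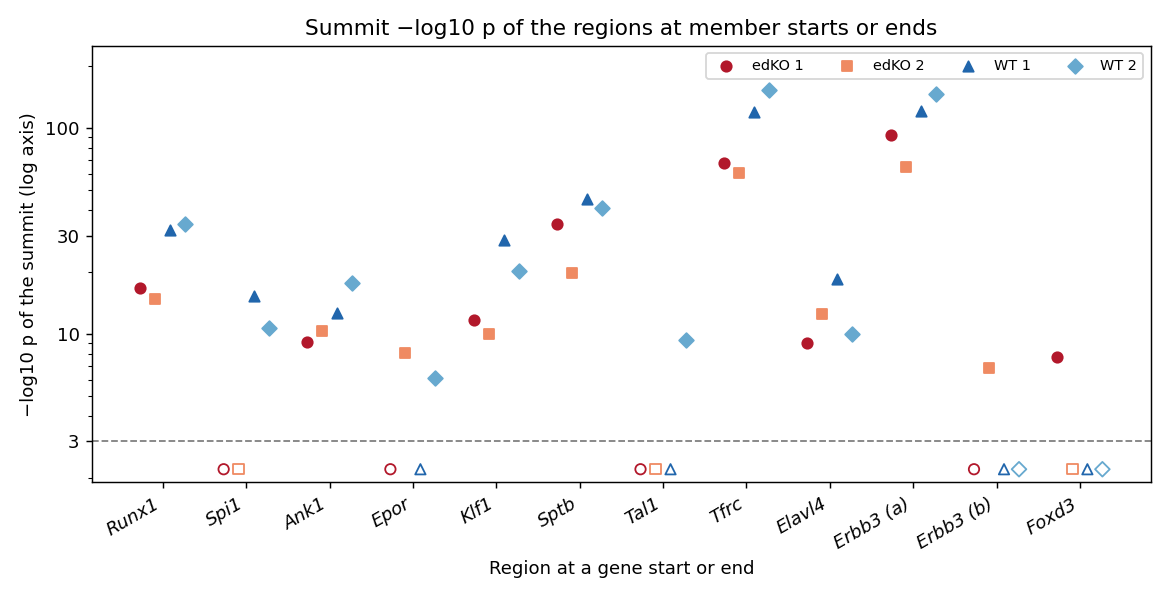
The authors' −log10 p (log axis) at the 12 regions within 1 kb of a start (either end where no start is known) of a member gene, in edKO 1, edKO 2, WT 1 and WT 2; open symbols under the dashed line at 3 mark libraries with no peak. The highest value is 153 at Tfrc in WT 2, and Foxd3 has a value in edKO 1 alone.

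**Figure D4:**
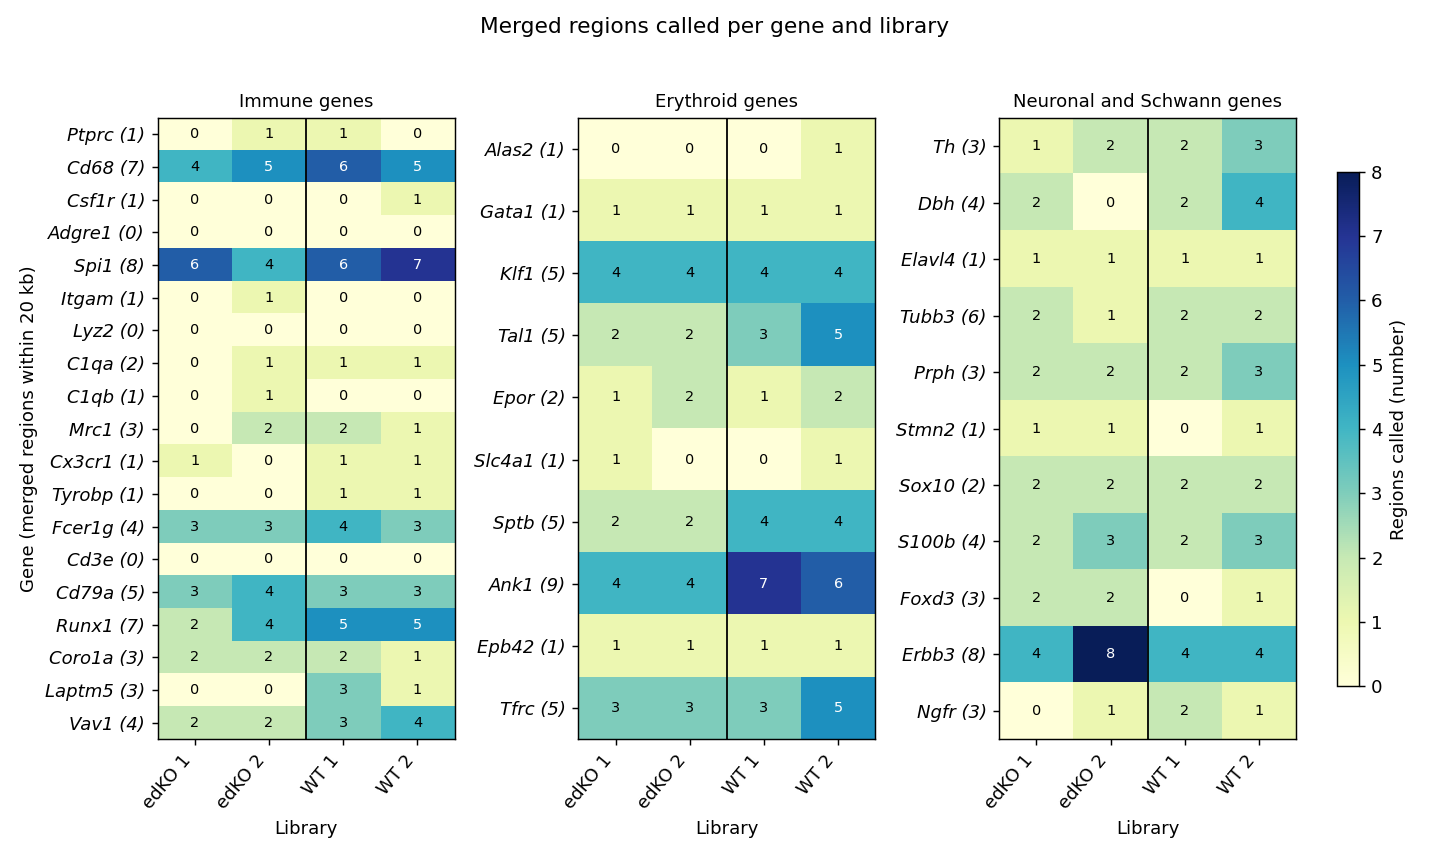
Number of merged regions called in edKO 1, edKO 2, WT 1 and WT 2 (columns) for each gene (rows, with its number of regions within 20 kb). Erbb3 stands at 8 in edKO 2 and 4 elsewhere, Ank1 at 4 in both edKO libraries against 7 in WT 1 and 6 in WT 2, and Adgre1, Lyz2 and Cd3e at 0; the 1 region shared by C1qa and C1qb appears in both rows.

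Fewer of the 124 regions were called in edKO hearts, whose peak lists were shorter. The libraries called 61 (edKO 1), 71 (edKO 2), 81 (WT 1) and 89 (WT 2) of them, 66 ± 7.07 in edKO and 85 ± 5.66 in WT hearts (SD, n = 2 each), a ratio of 0.776. Over all regions the ratio was 0.728. The exact permutation test, two-sided, gave p = 0.333, and this design allows no smaller p. Immune regions numbered 26 ± 4.24 in edKO and 36 ± 2.83 in WT hearts (exact p = 0.333), erythroid regions 19 in each edKO heart and 27 ± 4.24 in WT hearts (exact p = 0.333), and neuronal and Schwann regions 21 ± 2.83 in edKO and 22 ± 4.24 in WT hearts (exact p = 1.0, SD, n = 2 each). With all lists trimmed to equal length by −log10 p, edKO hearts called 2.5 regions more than WT hearts (exact p = 1.0).

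The share of WT-only regions was that of the genome as a whole. Both WT hearts called 67 member regions, of which 13 were WT-only (19.4%), and over all regions the share was 19.4%. By class 6 of 29 immune, 4 of 21 erythroid and 3 of 17 neuronal and Schwann regions were WT-only. With lists of equal length 4 of 52 were, beside 10.6% of all regions. Leaving out 1 heart requires fewer calls. It gave 29 (32.6%, beside 34.2% of all regions) without WT 1, 24 (29.3%, beside 30.4%) without WT 2, 19 (28.4%, beside 35.9%) without edKO 1 and 18 (26.1%, beside 24.6%) without edKO 2.

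Besides those of Spi1 and Th, WT-only regions lay in or near Cd68, Vav1, Laptm5, C1qa, Tyrobp, Sptb, Klf1, Tubb3 and Ngfr and at 2 sites of Ank1. That of Vav1, an exchange factor of blood cells, lay beyond the gene (chromosome 17, 57335666 to 57335949), with a −log10 p of 11.2 (WT 1) and 7.92 (WT 2). Those of Cd68 (at Mpdu1 and Sox15), Tyrobp (at Nfkbid) and Tubb3 (at Mc1r) lay at ends of other genes. Over all 13 WT-only regions the −log10 p ran from 4.88 to 15.3 in WT 1 and from 4.43 to 14.6 in WT 2, with medians of 6.80 and 9.07. The 44 regions called in all 4 libraries had medians of 25.2 in edKO 1, 17.5 in edKO 2, 33.1 in WT 1 and 44.9 in WT 2. In the second lists 7 of 35 immune, 3 of 23 erythroid, 6 of 24 neuronal and 5 of 20 Schwann and neural crest regions were WT-only.

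A single region was edKO-only, 1 of the 47 called in both edKO hearts, beside 1.35% of all regions. It lay beyond Klf1, the activator of globin genes (chromosome 8, 84920836 to 84921106), with a −log10 p of 5.29 (edKO 1) and 7.96 (edKO 2) on summits of 10 and 16 fragments. The next region along the chromosome (84921621 to 84921917) was WT-only, at 9.74 (WT 1) and 9.47 (WT 2). When a call in 1 edKO heart suffices, the count was 16 of 72 without edKO 1, beside 24.2% of all regions, and 6 of 62 without edKO 2, beside 10.1%. It was 1 without WT 1 and 2 without WT 2. No edKO-only region was found near the second lists of immune, erythroid, neuronal and Schwann genes (of 20, 15, 14 and 8 regions called in both edKO hearts).

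How often a region was called followed its distance from gene ends. Of the 124 regions 35 lay within 1 kb of an end of a protein-coding gene outside the list, and 23 of these (65.7%) were called in all 4 libraries, beside 65.3% of all regions at gene ends. They make up 23 of the 44 member regions called in all 4 libraries (35.5% of the 124, beside 31.2% of all regions). Of 14 regions at an end of a member only, 5 (35.7%) were called in all 4. Of 75 regions farther from any gene end 16 (21.3%) were, beside 18.8% of all such regions. Counting those that both WT hearts called, 3 of 27 at other genes' ends were WT-only (11.1%, beside 5.92% at all gene ends), 1 of 7 at ends of members only (14.3%), and 9 of 33 farther away (27.3%, beside 27.9%). Which gene a region acts on was not tested.

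**Figure D5:**
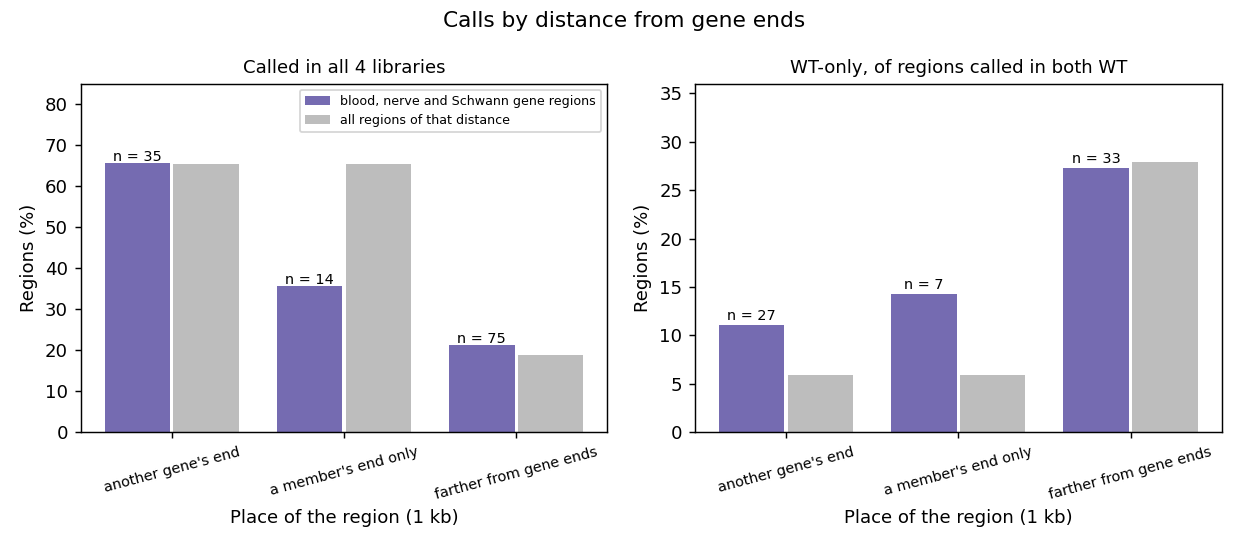
Percent of regions called in all 4 libraries (left) and, of regions called in both WT hearts, percent WT-only (right), by place, for the regions of blood, nerve and Schwann genes (purple, n above the bar) and for all regions of that distance (grey). Regions at other genes' ends were called in all 4 libraries in 65.7%, regions at ends of members only in 35.7%.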

How the data were processed

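ATAC-seq peak lists of 2 edKO and 2 WT hearts were used, 1 per library, with replicates not pooled by the authors. The submitters' processing notes name MACS2, Bowtie2, SAMtools, cutadapt, bcl2fastq and CASAVA and the build mm10 (GRCm38), with no versions, Tn5 shift or duplicate handling stated in the sources used here. Each deposited peak has a fold enrichment (a ratio over local background), the −log10 p and −log10 q-value of the summit, a summit position and a score, which was not used. The lowest −log10 p was 3.00 to 3.04. Fold and −log10 p were solved together for a whole-number pileup under a Poisson tail (within 0.001 in −log10 p, for 99.9858% to 100% of peaks). The depth in reads is unknown, and fragments of PCR libraries are not independent molecules.

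Peaks overlapping by at least 1 bp were merged with Python 3.11.15, pandas 2.3.3 and scipy 1.17.1, and merging was tested on simulated lists. Regions near 2 members counted once, under the nearer. Groups were compared by counts and by an exact permutation test over libraries, two-sided. Gene positions and promoter windows are RefSeq's. Every member is named. Regions are given with values at starts, where edKO-only, or among the 5 highest of a class by rank of −log10 p. Most WT-only regions are given by gene name and by the range of their values. Members and gene lists were chosen with earlier results of these data known. Alternatives tried were a higher threshold, lists of equal length, other overlap, merging and distance rules, leaving out regions at other genes, and leaving out each heart.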

Additional observations from a re-analysis of the deposited data

How the results depend on the processing

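With a minimum −log10 p of 10 for all peaks there were 10 WT-only and 0 edKO-only member regions, and 1 WT-only erythroid region. With lists of equal length there were 4 WT-only regions (2 immune, 1 erythroid, 1 neuronal and Schwann) and 2 edKO-only regions, and the difference in regions called turned to 2.5 more in edKO than in WT hearts (exact p = 1.0); the cause was not tested. With at least 50% of the region covered there were 5 WT-only neuronal and Schwann regions and 2 edKO-only regions, and 2 edKO-only regions with windows around the summits. With a 5 kb flank there were 6 WT-only regions (2 immune and 2 erythroid) and 0 edKO-only, and with gene bodies alone 4 (1 immune, 2 erythroid, 1 neuronal and Schwann) and 0; these hold fewer regions. Leaving out 1 heart asks for fewer calls. It gave 18 to 29 WT-only regions (8 to 13 immune, 5 to 11 erythroid, 3 to 8 neuronal and Schwann), 1 to 16 edKO-only regions (16 without edKO 1, 6 without edKO 2), and differences of -25.5 to -13.5 regions, edKO minus WT. The replicate block, which pairs hearts of the same number, gave the same difference of -19 (exact permutation within pairs, p = 0.5, the smallest 2 pairs allow). The labels do not say that the numbers pair hearts, and the correlation of call deviations over all regions was -0.012. In no other alternative did the direction of this difference change. The share of WT-only regions among members and among all regions was 21.7% and 21.6% with the higher threshold, 24.6% and 23.9% with at least 50% of the region covered, 21.7% and 20% with windows around summits, 7.69% and 10.6% with lists of equal length, and 26.1 to 32.6% and 24.6 to 35.9% with 1 heart left out. Beside 19.4% of all regions, it was 16.7% with the 5 kb flank and 19% within gene bodies. Without member regions at the end of another gene it was 25.0%, and the 19.4% is no like comparison because it keeps regions at gene ends. Over all regions the share was 27.9% farther from any gene end and 5.92% at gene ends. The edKO-only share of all regions was 24.2% without edKO 1, 10.1% without edKO 2 and 0.243 to 3.85% under the other alternatives. The peak lists give no value for a site below the threshold, and 2 hearts per group allow no p below 0.333.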
